A study of Homo sapiens with 10 samples.

Results

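The regions described here are stretches of H3K9me3 shorter than 10 kb that lay wholly inside the body of a protein-coding gene and touched no gene named as a zinc finger gene. They were taken from 1 merged list of H3K9me3 regions called in BJ fibroblasts, an established line from human foreskin, after siRNA against ERH. A row was kept when it lay on chromosomes 1 to 22, had the piece number 1, was under 10 kb long, fell entirely within a protein-coding gene of GRCh38, and overlapped no gene with a symbol made of ZNF, ZFP, ZKSCAN or ZSCAN followed by a number. The regions were thus chosen by 2 measured values, the call itself and its length, and by position. This gave 2738 of the 10536 rows, or 26.0%. They covered 10.1 Mb, which is 20.0% of the length of the list.

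H3K9me3, the trimethylation of lysine 9 of histone H3, marks heterochromatin. It is written by enzymes such as SETDB1 and the SUV39H pair and is read by HP1 proteins. It is best known at satellite repeats, at transposable elements and over the clustered zinc finger genes, and inside the introns of other genes it commonly forms isolated patches. ERH is a small nuclear protein that takes part in heterochromatin formation, and the study knocked it down to ask what happens to marked chromatin and to binding by SOX2.

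The group used was BJ fibroblasts given siRNA against ERH at 5 nM in 2 rounds set 3 days apart, with 3 samples profiled by CUT&RUN for H3K9me3 and merged by the authors into 1 list. In CUT&RUN an antibody tethers a nuclease to the marked chromatin and the released DNA is sequenced. The 3 H3K9me3 samples given control siRNA, and the 2 control and 2 knockdown samples profiled for SOX2 at 48 hours after reprogramming virus, were not analysed here. Nothing below therefore compares knockdown with control cells, and no value has a spread between replicates. BJ is 1 cell line, the list holds no read counts, and the sequencing depth is unknown.

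Very few of these regions reached a promoter, and few regions of other kinds did. Of the 2738, 14 overlapped a promoter window of a protein-coding or lncRNA gene (0.511%), and the 4 at protein-coding genes are shown by sequence. These 4 are 0.146% of the regions. The share at protein-coding genes was 0.0607% for shorter regions that touched no annotated gene. It was 1.66% for regions that overlapped a named zinc finger gene. Of 21155 promoter windows of protein-coding genes on chromosomes 1 to 22 (250 bases before to 50 after each annotated start, with several starts for some genes), 4 overlapped a region, a share of 0.0189%. The windows come from RefSeq on GRCh38.p14 and were found for 78.8% of the genes considered. Each of the 4 windows lay entirely inside its region. The requirement that a region lie inside a gene leaves out most regions that would span a gene's outermost start, so this count describes inner starts and nested genes. The 250 bases before each start are printed 5′ to 3′ on the gene's strand, with every CG dinucleotide, the site of DNA methylation, in capitals:

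SOX30, chr5:157652439-157652688, minus strand: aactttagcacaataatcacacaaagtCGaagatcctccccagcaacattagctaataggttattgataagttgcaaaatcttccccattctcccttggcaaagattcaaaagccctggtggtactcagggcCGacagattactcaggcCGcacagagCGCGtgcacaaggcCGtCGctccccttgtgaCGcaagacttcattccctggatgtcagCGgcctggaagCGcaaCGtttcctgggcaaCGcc

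RIPOR2, chr6:24877271-24877520, minus strand: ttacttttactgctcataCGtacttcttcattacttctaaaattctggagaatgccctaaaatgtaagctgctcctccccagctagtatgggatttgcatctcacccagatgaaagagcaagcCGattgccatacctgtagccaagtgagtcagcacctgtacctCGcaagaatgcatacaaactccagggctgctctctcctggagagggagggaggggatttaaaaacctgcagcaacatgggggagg

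KRTAP10-5, chr21:44580605-44580854, minus strand: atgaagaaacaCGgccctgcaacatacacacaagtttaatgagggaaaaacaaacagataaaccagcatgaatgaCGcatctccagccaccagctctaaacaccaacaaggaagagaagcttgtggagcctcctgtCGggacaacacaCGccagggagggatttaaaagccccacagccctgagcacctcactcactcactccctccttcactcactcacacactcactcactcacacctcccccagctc

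KRTAP10-11, chr21:44646164-44646413, plus strand: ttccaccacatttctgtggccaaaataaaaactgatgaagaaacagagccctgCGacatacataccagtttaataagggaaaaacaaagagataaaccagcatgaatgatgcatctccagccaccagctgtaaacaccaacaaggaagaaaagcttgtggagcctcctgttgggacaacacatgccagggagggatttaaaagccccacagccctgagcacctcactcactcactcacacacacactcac

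The SOX30 stretch held 12 CG dinucleotides, the RIPOR2 stretch 3, the KRTAP10-5 stretch 4 and the KRTAP10-11 stretch 1. Over all 21155 stretches of the same kind the median was 17, and 96.8% held at least 1 CG, the only motif searched, which reads the same on both strands. All 4 thus lay below the median, with SOX30 nearest to it.

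SOX30 encodes a transcription factor of spermatid development. Its region spanned chr5:157652201-157659304, 7104 bp, with a score of 66431, and covered the inner of the 2 start windows the table gives for the gene. RIPOR2 encodes an inhibitor of the small GTPase RHOA. Its region at chr6:24875806-24878471 (2666 bp, score 17726) covered 1 of its 5 start windows. The other pair are keratin-associated protein genes, which encode matrix proteins of the hair shaft and lie nested inside TSPEAR on chromosome 21. The region at chr21:44579673-44582805 (score 19811) covered 81.0% of KRTAP10-5, and the region at chr21:44642921-44646479 (score 24923) ended in the opening 5.34% of KRTAP10-11.

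Of 1461 annotated miRNA hairpins on chromosomes 1 to 22, 3 lay inside a region. No background was computed for this count. Each of the 3 hairpins lay on the strand of its host gene. Their mature sequences (RefSeq, GRCh38.p14) are printed 5′ to 3′ with the seed, bases 2 to 8, in capitals:

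hsa-miR-6760-5p: cAGGGAGAagguggaagugcaga

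hsa-miR-6760-3p: aCACUGUCcccuucuccccag

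hsa-miR-2115-5p: aGCUUCCAugacuccugaugga

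hsa-miR-2115-3p: cAUCAGAAuucauggaggcuag

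hsa-miR-5586-5p: uAUCCAGCuuguuacuauaugc

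hsa-miR-5586-3p: cAGAGUGAcaagcugguuaaag

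No 2 of these 6 share a seed, and each seed was found under 1 name only among the 2370 mature miRNAs of the table. MIR6760 lies in CUX2, which encodes a homeodomain factor of neurons, under a region at chr12:111302781-111307341 with a score of 50930. MIR2115 lies in SPINK8 under a region at chr3:48313237-48317367 with a score of 47812, and MIR5586 lies in RTN1 under a region at chr14:59644034-59649523 with a score of 27267. Per base pair the 3 regions scored 11.2, 11.6 and 4.97.

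The score is a whole number per region that the authors deposited without a unit, and it grows with length. Length was used to choose the regions, and length and score come from the same call, so both are given as description. The shortest region was 362 bp and the longest 9972 bp. The median was 3305 bp, with 5% of regions below 2010 bp and 5% above 6732 bp. Only 417 regions, or 15.2%, were at least 5 kb long. The lowest score was 12643, the median 22612.5 and the highest 212123, and 33.3% lay within 1.5 times the lowest score of the list. The median score per base pair was 7.02 (95% binomial interval of the median 6.94 to 7.13 over regions, which are not replicates).

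**Figure D1:**
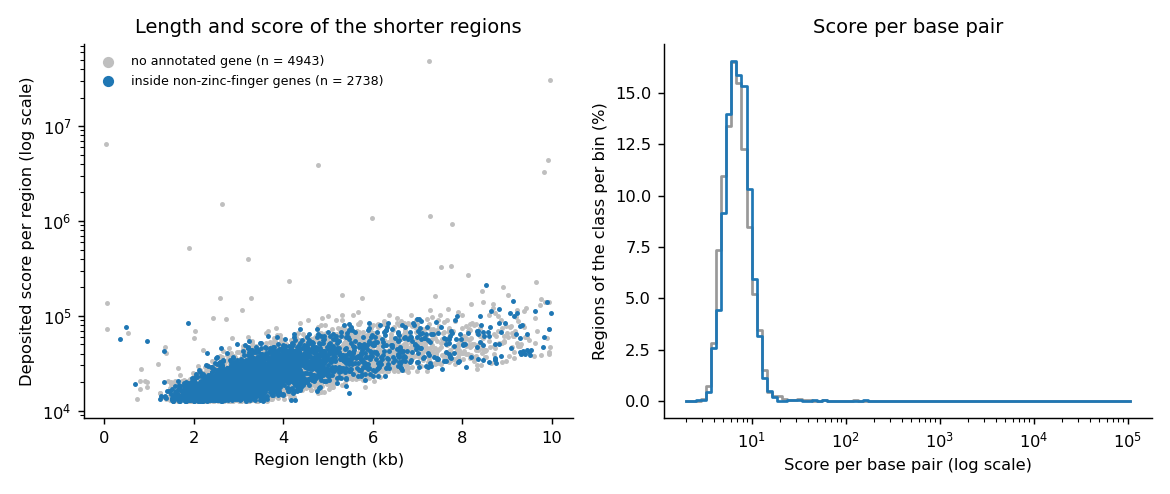
Left, region length in kb against the deposited score on a log axis, 1 point per region. Right, the share of regions in each bin of score per base pair on a log axis. The 2738 regions inside non-zinc-finger genes (blue) overlie the 4943 shorter regions that touch no annotated gene (grey), and the highest scores per region are grey.

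The values on both sides of the length limit overlapped. The 3 longest regions inside it lay in IHO1 (9972 bp, score 107904), TLR2 (9924 bp, score 72094) and INPP4B (9887 bp, score 141307). The 3 shortest just outside it lay in CHD6 (10017 bp, score 94499), PTPRN2 (10147 bp, score 55321) and KCNG2 (10172 bp, score 108583). In all, only 39 regions of 10 kb or more met every other part of the rule.

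The highest scores belonged mainly to regions near the upper length limit. The top region lay in ANKRD30BL at chr2:132222881-132231398, 8518 bp long, with a score of 212123. It was followed by regions in PRAG1 with 142149, INPP4B with 141307, TXNRD1 with 116776 and GLRA1 with 112561. INPP4B encodes a lipid phosphatase, TXNRD1 the cytosolic thioredoxin reductase and GLRA1 a subunit of the inhibitory glycine receptor. IHO1, needed for meiotic DNA double-strand breaks, had a region at chr3:49225254-49235225 with a score of 107904, and CATSPERE, a subunit of the sperm calcium channel, had one at chr1:244571284-244580335 with a score of 106954.

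Mostly other regions led by score per base pair, although the ANKRD30BL region, with 24.9, was among the 10 highest by both measures. Only 7 of the 2738 regions exceeded 20 per base pair, and they included very short ones. The region in HFM1, a meiotic DNA helicase gene, was 362 bp long at chr1:91387226-91387587 and reached 160 per base pair. The region in SENP5, a SUMO protease gene, was 488 bp long at chr3:196898480-196898967 and reached 156. LOC112268044 on chromosome 9 followed with 57.3, and the 2 regions of CDC27, a subunit of the anaphase-promoting complex, had 44.9 and 28.2. The CDC27 region with the higher value lay over an annotated pseudogene, LOC112268192, and covered 99.2% of it. How reads shared between similar sequences were handled is not given in the sources used here, and the part of such reads in these values was not tested.

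The regions fell in 1684 host genes, which is 9.07% of the 18569 protein-coding genes of chromosomes 1 to 22 outside the named zinc finger genes. Of the hosts, 1152 (68.4%) held 1 region, 290 held 2 and 242 held 3 or more. At least 2 regions were found in 2.86% of all genes. Genes with 3 or more regions together held 1048 regions, or 38.3%. Nested or overlapping genes placed 44 regions in 2 hosts and 1 region in 3. In most hosts the regions took up little of the gene, with a median of 2.76% of the body covered.

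The genes with the most regions were all very long. SDK1, which encodes a synaptic adhesion protein of the immunoglobulin superfamily, held 19 regions over a body of 968 kb at chr7:3301252-4269000. They covered 10.3% of it and were spread from 93.2 to 941 kb from its start, with a median gap of 44.0 kb between neighbours. Their lengths ran from 2925 to 9801 bp with a median of 4241 bp. The scores per base pair ranged from 3.65 to 7.37 with a median of 4.83, below the 7.02 of the whole set.

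AGBL4, which encodes a deglutamylase of tubulin, held 14 regions over 1501 kb, all between 26.3 and 888 kb from its start, so that the 3′ part of this gene had none. SPAG16, a sperm and cilium axoneme gene, held 12 over 1126 kb. LRMDA, a melanocyte differentiation gene, also held 12, over 1129 kb, and here the median score per base pair was 8.12. WDPCP, a planar cell polarity and ciliogenesis gene, had 11 regions over 721 kb. GPHN, which encodes the scaffold gephyrin of inhibitory synapses, had 10. CSMD1 and CSMD3, large complement-control domain genes of the brain, held 10 and 9, and PTPRN2, a dense-core vesicle gene, held 9. Among the genes named here the median score per base pair was lowest in CSMD1, at 4.60, and highest in LRMDA, at 8.12.

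**Figure D2:**
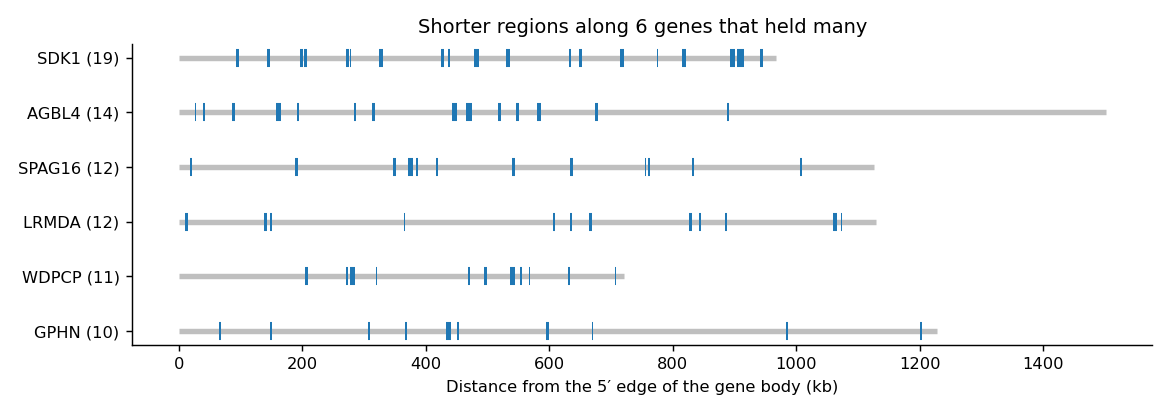
Positions of the regions (blue) along 6 of the genes with the most regions, those whose strand was known (grey), in kb from the 5′ edge of each gene body, with the number of regions beside each name. The regions of SDK1 are scattered between 93.2 and 941 kb from its start, while the 14 regions of AGBL4 begin within 888 kb of its start.

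The share of genes with a region rose with gene length, as it must when regions of a few kb have to fit inside. Of 5255 genes under 10 kb, 3 held a region (0.0571%, Wilson 95% interval 0.0194 to 0.168%). Among genes of 100 to 200 kb the share was 23.6%, among those of 200 to 500 kb 47.6%, and among the 301 genes of 500 kb or more it was 79.7% (Wilson 95% interval 74.8 to 83.9%). Host genes had a median length of 166 kb against 24.6 kb for all genes.

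Counted per Mb of summed gene length, the range among genes of 50 kb or more was narrower. Genes of 50 to 100 kb held 1.94 regions per Mb, those of 100 to 200 kb 2.24, those of 200 to 500 kb 2.84 and those of 500 kb or more 2.99. The value over all genes was 2.28 per Mb. In the other direction, the score per base pair was lowest in the longest hosts. Its median was 6.24 (95% binomial interval of the median 6.05 to 6.42) for 739 regions in hosts of 500 kb or more and 7.51 (7.24 to 7.80) for 557 regions in hosts of 100 to 200 kb. The regions in the longest hosts were slightly longer, with a median of 3564 bp against 3173 bp.

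**Figure D3:**
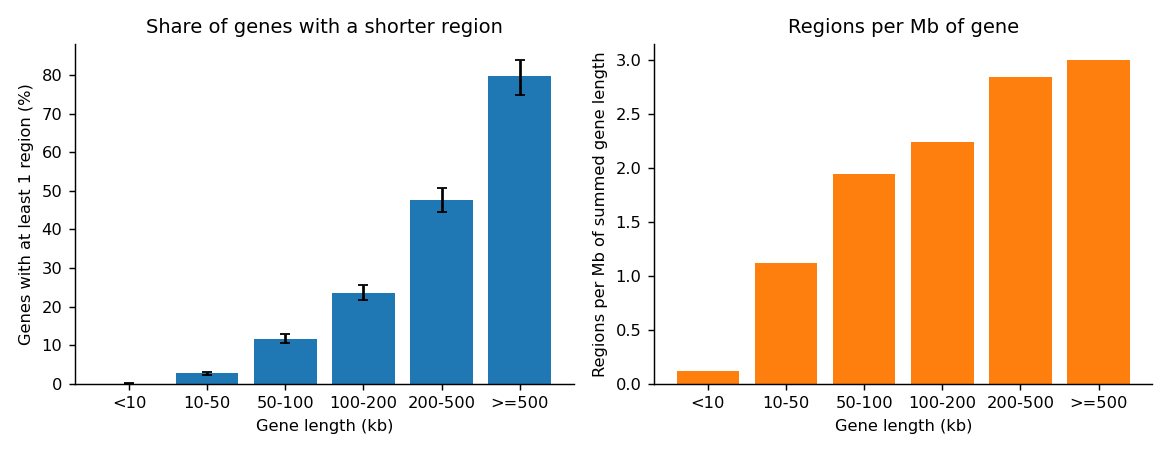
Left, the share of protein-coding genes with at least 1 region by gene length in kb, with Wilson 95% intervals. Right, regions per Mb of summed gene length in the same classes. The share climbs from 0.0571% to 79.7%, while the regions per Mb level off at 2.84 and 2.99 in the 2 longest classes.

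Few genes had a large part of their body covered. Among hosts of at least 5 kb, PRSS22, a serine protease gene, led with 43.8% covered by a region at chr16:2853000-2855384. ACRBP, which encodes a binding protein of proacrosin in sperm, had 40.1% covered by a region at chr12:6641895-6645643. CMPK2, an interferon-induced mitochondrial nucleotide kinase gene, was covered over 40.0% by 2 regions, with scores of 59389 and 18012. TLR2, a Toll-like receptor gene of bacterial sensing, had 37.7% covered, PTGER2, a prostaglandin E2 receptor gene, 32.9%, and SERPINA3, a secreted protease inhibitor gene, 32.2%. The next were TMEM212 with 31.5%, the olfactory receptor gene OR4K1 with 29.4%, OOSP3 with 28.0% and the potassium channel gene KCNJ12 with 27.9%. In all, 16 hosts had at least 25% of the body covered.

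Along the host gene the regions were spread over its whole length, with the lowest shares in the outermost stretches. The strand was known for the hosts of 2219 regions (81.0%), and position was expressed as the share of the way from the 5′ to the 3′ edge of the gene body that the region could take. The median was 46.1% (95% binomial interval of the median 44.5 to 48.3%). The stretch from 0 to 10% held 8.83% of the regions (Wilson 95% interval 7.72 to 10.1%) and the stretch from 90 to 100% held 7.89% (6.84 to 9.08%). An even spread would give 10% per stretch, which lies inside the first interval and above the second. The inner stretch from 50 to 60% held 9.15%, close to the first. The fullest stretch, from 30 to 40%, held 12.1% (10.8 to 13.5%). In hosts of 500 kb or more 57.2% of 591 regions lay in the 5′ part up to the midpoint, compared with 52.3% of 1176 in hosts of 100 to 500 kb and 53.1% of 452 in hosts under 100 kb. These intervals treat regions as independent, which neighbours in a gene are not, and cover counting error only.

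Close to the edges the 2 ends were nearly alike. The 5′ end of the region lay within 1 kb of the gene's 5′ edge in 5 cases, and the 3′ end of the region lay within 1 kb of the gene's 3′ edge in 6. Within 5 kb the counts were 62 (2.79%) and 63 (2.84%). The median distance from the 5′ edge was 96.8 kb. One of the 10 highest-scoring regions lay near a start, at 992 bp from the 5′ edge of ST20-MTHFS, a readthrough gene on chromosome 15. Exons were not used here, so exonic and intronic regions are not separated.

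**Figure D4:**
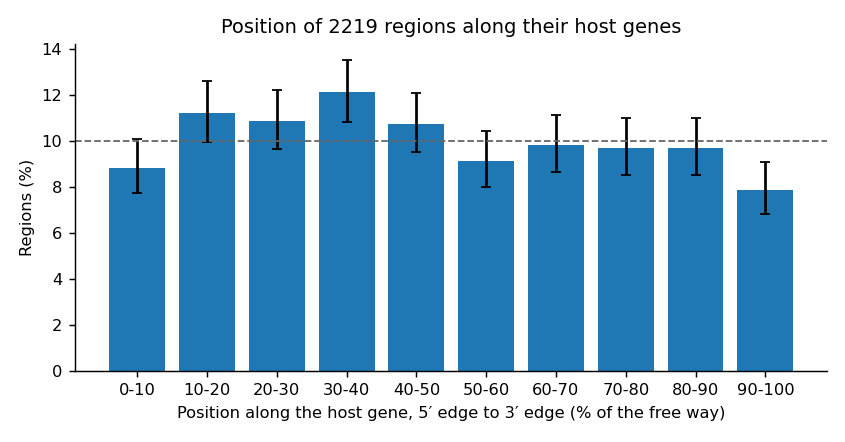
Share of 2219 regions in each of 10 equal stretches along the host gene, from the 5′ edge to the 3′ edge, with Wilson 95% intervals. The dashed line is an even spread. The lowest bars are the outermost ones, at 8.83% and 7.89%, and the highest is 12.1%.

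Gene lists were counted next, each beside the share of all genes (9.07%) and the share that all genes of like length would give. The latter takes the share in each length class and weights it by the list's genes. No test was made between lists. The list of neuronal adhesion and synapse genes, which also holds a few other very long genes, had a region in 39 of 56 genes (69.6%, Wilson 95% interval 56.7 to 80.1%), against 68.9% for genes of like length. Beyond the CSMD genes it included the growth factor receptor gene ERBB4 with 8 regions, and the potassium channel partner DPP10, the neurexin relative CNTNAP2 and MACROD2 with 7 each. The list of voltage-gated ion channel genes had 25 of 132 (18.9%, against 18.8% for like length). It also holds other potassium channel genes, such as KCNJ12 and KCNK2, and genes of accessory subunits, such as KCNIP4. KCNQ1, a potassium channel gene of the heart that lies in an imprinted domain, led this list with 7 regions. The calcium channel genes CACNA1A and CACNA2D3 had 4 each.

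Other neuronal families lay below the share of genes of like length. Glutamate and GABA receptor genes had 8 of 43 (18.6%, Wilson 95% interval 9.74 to 32.6%, against 32.8%), with 5 regions in GRM7 and 4 in GABRG3. Single cadherin and protocadherin genes had 9 of 47 (19.1%, interval 10.4 to 32.5%, against 25.9%), led by PCDH15, a hair cell gene, with 5. Axon guidance genes had 14 of 69 (20.3%, interval 12.5 to 31.2%, against 26.4%), led by SLIT3 with 4. The like-length share lies inside the interval for both of the latter and just outside it for the receptors.

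Axonemal dynein heavy chains, the motors of cilia and sperm tails, had a region in 8 of 13 genes (61.5%, Wilson 95% interval 35.5 to 82.3%), against 39.3% for genes of like length. Per Mb of gene they held 5.92 regions, the highest of the 16 lists, compared with 2.28 over all genes. DNAH14 had 5 regions, DNAH6 4, DNAH10 and DNAH7 3 each, DNAH11 and DNAH5 2 each, and DNAH9 and DNAH12 1 each. The 3 regions of DNAH10 were packed between 53.5 and 69.5 kb from its start, with scores of 32842, 23632 and 24779, whereas those of DNAH14 were spread from 1.82 to 350 kb. With 13 genes the interval is wide. With regions of at least the median score of the list only, the share was 23.1% of the dynein genes and 4.88% of all genes. That 23.1% lies below the interval given above, but a stricter limit can only keep or lower a share. The dynein genes are long, with a median of 315 kb, and the share for like length was not computed at this limit.

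Genes of the H3K9 methylation pathway themselves held regions in 6 of 30 cases (20.0%, Wilson 95% interval 9.51 to 37.3%, against 11% for like length). ATF7IP2, a relative of the SETDB1 partner ATF7IP, had 4 regions within 97.6 kb on chromosome 16, which is 41.0 per Mb. The ATF7IP2 regions scored 47336, 21417, 32845 and 22813. ATF7IP had 2, with scores of 23169 and 33474. Of the methyltransferase genes, SETDB1 had 1 region at chr1:150931112-150932978, whose score of 12988 is near the lowest of the list, and SETDB2 had 1 with 16270. The demethylase genes KDM4B and KDM4C had 1 each, with 30180 and 17549. ERH itself, at chr14:69380128-69398299, held none, and the nearest of the regions was 737 kb away in RAD51B.

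Meiotic and germline genes had a region in 6 of 38 cases (15.8%, Wilson 95% interval 7.44 to 30.4%, against 9.39% for like length). Where the strand was known, all began more than 10 kb from the gene's 5′ edge. The same held for most of the whole set, in which 6.76% of 2219 placed regions began within 10 kb of it. The regions of HORMAD2, a meiotic chromosome axis gene, began 14.0 and 64.7 kb from it and scored 47585 and 18265. That of DMC1, the meiotic recombinase gene, began 24.9 kb away with a score of 36079. ASZ1, a piRNA pathway gene, had its region 36.9 kb away, the cohesin gene SMC1B 45.8 kb and the synaptonemal complex gene SYCP1 127 kb away. PIWIL4, a nuclear piRNA effector gene, had the highest score of the list, 59282.

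Extracellular matrix and fibroblast genes were also counted. Expression was not measured here, so which of these genes are active in BJ cells is not known from these data. Collagen genes had regions in 15 of 42 cases (35.7%, Wilson 95% interval 23.0 to 50.8%, against 22.8% for like length). With regions of at least the median score of the whole list only, the share was 11.9%, against 4.88% of all genes. At least 2 regions were held by 3 of the 42 (7.14%), against 2.86% of all genes. Both shares lie below the interval given, but a stricter limit can only keep or lower a share. The share for like length was not computed for either. The collagen gene COL26A1 had 3, with scores per base pair of 10.3, 16.8 and 9.77, and COL15A1 and COL5A2 had 2 each. Fibroblast genes had 3 of 22 (13.6%, interval 4.75 to 33.3%, against 10.6%). These were COL5A2, the growth factor receptor gene PDGFRA with a region of score 34967 beginning 10.8 kb from its 5′ edge, and the proteoglycan gene DCN with a region of score 31739. The list of ADAM and ADAMTS protease genes, which also holds ADAMTS-like genes, had 9 of 44 (20.5%, against 19.5%). ADAMTS17 and the ADAMTS-like gene ADAMTSL1 had 6 regions each.

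Solute carrier genes had 40 of 344 (11.6%, Wilson 95% interval 8.66 to 15.4%, against 9.44%), led by SLC39A11 and SLC41A3 with 3 each. Cytochrome P450 and UGT genes had 7 of 76 (9.21%, Wilson 95% interval 4.53 to 17.8%, against 5.82%), among them the oxysterol hydroxylase gene CYP7B1 with 1 region, while UGT1A8 and UGT1A10 overlap and share 1 region. Olfactory receptor genes had 4 of 389 (1.03%, against 0.857%), in OR4N2, OR2L13, OR4K1 and OR56A3. A region was found in 0 of 77 ribosomal protein genes. The Wilson 95% interval reaches 4.75%, and 3 counts of the total, the limit used for a count of 0, come to 3.90%, against 0.431% for genes of their small size, so a difference was not detectable with these numbers.

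**Figure D5:**
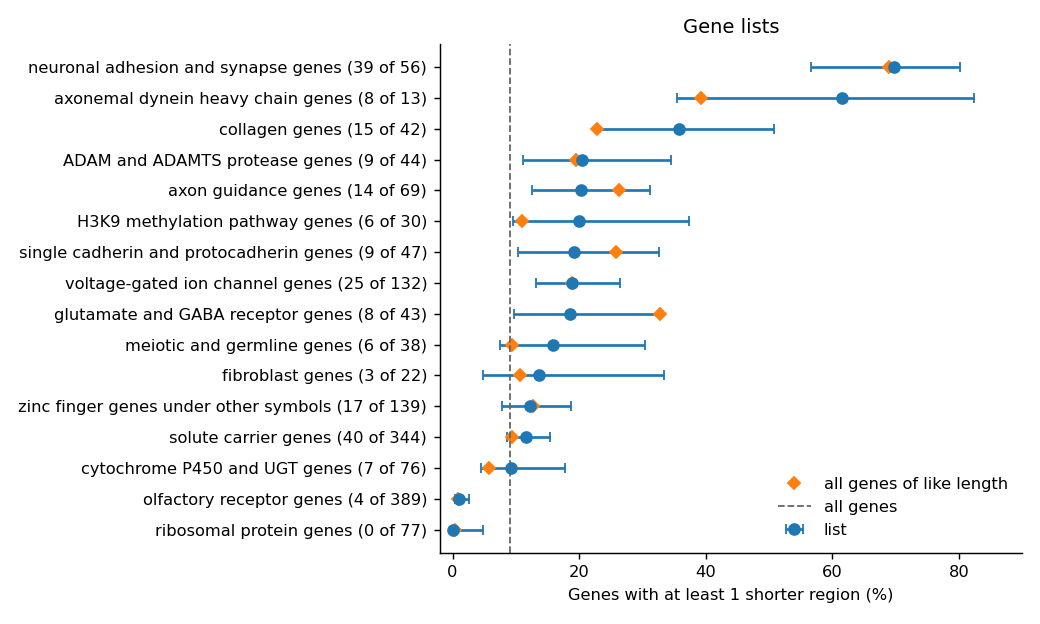
Share of the genes of each list with at least 1 region (blue, Wilson 95% interval, with the counts beside the names), the share that all genes of like length would give (orange) and the share of all genes (dashed, 9.07%). The orange mark lies just outside the blue interval for glutamate and GABA receptor genes (32.8% against an upper bound of 32.6%) and for collagen genes (22.8% against a lower bound of 23.0%), and inside it for the other 14 lists.

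The rule excludes zinc finger genes by symbol only, so zinc finger genes with other names remain. Of 139 such genes, among them ZBTB, PRDM, KLF, GLI and ZEB genes, 17 held a region (12.2%, Wilson 95% interval 7.78 to 18.7%, against 12.7% for like length). The transcription factor genes KLF12, GLIS3 and ZBTB20 had 3 each, and ZFAT, ZEB1 and ZMAT4 had 2 each. The label of non-zinc-finger genes thus holds for the symbols named and not for every gene that encodes a zinc finger. The median distance of the regions to the nearest named zinc finger gene was 6.54 Mb, and 33 of them (1.21%) lay within 100 kb of one. Regions that touch such a gene are left out by the rule. The 4943 shorter regions that touched no annotated gene were similar, with a median of 6.95 Mb and 2.08% within 100 kb.

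Another annotated gene besides the host lay under 277 of the 2738 regions (10.1%, Wilson 95% interval 9.04 to 11.3%). A lncRNA gene was overlapped by 204 regions and a pseudogene by 58. Of the 63 pseudogenes involved 43 lay wholly inside the region, 16 were copies of small RNA genes (U6, 7SK, 7SL, 5S and the like) and 9 of ribosomal protein genes. Pseudogenes made up 0.432% of the bases of the regions and 0.409% of the bases of the gene bodies, and lncRNA genes 6.83% and 7.0%, so both were close to their share of gene bodies. The median score per base pair was 7.64 for the 58 regions with a pseudogene and 7.02 for the 2461 regions with no other gene. Among nested coding genes, chosen here after their values were seen, TEX50 was covered over 89.1% by a region inside ANKRD45 with a score of 40685.

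The regions were spread over all 22 autosomes. Chromosome 2 held the most, 279, and chromosome 20 the fewest, 35. Per Mb of gene body chromosome 20 was lowest with 1.29 and chromosome 21 highest with 2.99, and the median over the autosomes was 2.29. Chromosome 19, where zinc finger genes are concentrated, held 57 regions or 2.34 per Mb of gene body, close to that median. These made up 13.2% of the chromosome's regions, the lowest share of any autosome, against 38.5% on chromosome 15, the highest.

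Set beside the 4943 shorter regions that touched no annotated gene, those inside genes were similar in size and score per base pair. The median lengths were 3305 and 3470 bp and the median scores per base pair 7.02 and 6.80. High values were fewer inside genes, with 7 of 2738 above 20 per base pair against 43 of 4943. The regions inside genes were also more isolated. The median gap to the nearest other region was 74.7 kb against 54.1 kb, and 2.59% of them had a region of 10 kb or more within 100 kb, against 5.87%. Regions that overlapped a named zinc finger gene, which have no length limit here, had a median length of 6144 bp, a median score per base pair of 9.06 and a region of 10 kb or more within 100 kb in 58.9% of 421 cases. Regions are not replicates, and no test of these differences was made.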

How the data were processed

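CUT&RUN for H3K9me3 was made from BJ fibroblasts after ERH siRNA, per the labels' protocols. Per the submitters' processing notes, the build was hg38 and the tools listed, with no role or order, were Bowtie2 2.3.4.1, SAMtools 1.16.1, R 3.6.3, deepTools 3.5.0, bedtools 2.27.1 and SEACR 1.3. The peak threshold, any control library and the way the 3 samples were merged are not given in the sources used here. The deposited list has 6 columns and no header. Its score per region was deposited without a unit, and the piece number, of no stated unit, is above 1 in 17 rows of the deposited list, which repeat the score of the row before and were left out.

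Gene bodies, types and start windows came from RefSeq tables of GRCh38.p14. Overlaps, positions, gene counts and intervals (Wilson for shares, binomial for medians, 95%) were computed with Python 3.11.15, numpy 2.4.6, pandas 2.3.3 and scipy 1.17.1. Where hosts were nested, position used the shortest. Interval arithmetic was tested on 200 simulated sets, with 0 differences from base-by-base counting. With 1 merged list there are no replicates and no test.

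Named genes were the 10 with the most regions, the 10 of at least 5 kb most covered, hosts of the 10 highest scores and scores per base pair, hosts with a region over a start, up to 6 per gene list, the neighbours of the length limit, and ERH. Some genes that meet it are not reported here. Members and lists were chosen with earlier results of these data known. GC content and repeat share were not run.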

Additional observations from a re-analysis of the deposited data

Results flagged for a closer look

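Signal of the same kind was present outside the chromosomes described above. On chromosome X, 9 regions under 10 kb lay inside non-zinc-finger genes, or 0.179 per Mb of gene body, and on chromosome Y there were 0. The autosomes held 2.3 per Mb, and the lowest of them 1.29. The 9 host genes on X were ANOS1, ARSH, CASK, CHIC1, GLRA2, IL1RAPL1, MAGED1, MAP7D2 and ZC3H12B, and the median score per base pair was 6.0.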

How the results depend on the processing

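Of 56 values recomputed under 8 other choices, 45 remained inside the interval of the value reported or, for counts, changed by at most 1.5 times. Regions below 5 kb moved the share of protein-coding genes with a region to 8.30% and regions over the host's start to 1. Counting regions with at least 1 bp in a gene raised the latter to 10, from 2. Keeping scores at or above the list's median gave, by construction, 1216 regions in 906 genes, 4.88% of genes, a median of 8.30 per base pair and 1 region over a start. All annotated gene bodies gave 4274 regions in 2920 genes. The share of regions in the 10% longest protein-coding genes was then 42.9%, against 66.9%. It falls by construction, since the regions added lie wholly inside no protein-coding gene. The share of summed gene length held by those longest genes is not given here. The median position along the host stayed between 45.8% and 47.6% under each of the 8 choices. For the 16 gene lists, 18 of 32 values left their interval. Both choices made there keep only some of the hosts, so a share can only stay or fall. The share of all genes fell from 9.07% to 4.88% with the score limit and to 2.86% with at least 2 regions. With at least 1 region, with the score limit and with at least 2 regions, 14, 13 and 11 lists lay above all genes. These counts do not allow for gene length. The depth of the libraries is unknown, so regions below the calling limit cannot be told from unmarked ones. No paired analysis was possible because 1 merged list stands for all 3 knockdown samples and no list of another group was analysed here.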
